A study of Mus musculus with 6 samples.

Results

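The genes examined here encode the NALCN sodium leak channel complex (Nalcn, Unc79, Unc80 and Fam155a) and part of the hyperpolarization-activated channel family (Hcn2, Hcn3, Hcn4 and the auxiliary subunit gene Pex5l). They are listed by name, with no threshold on measured values, and are 8 of the 49568 gene names in the files. RNA was sequenced from the preBötzinger Complex (preBötC), the brainstem site that generates the inspiratory breathing rhythm, in neonatal mice at postnatal day 2. The 3 Dbx1 samples held neurons with tdTomato fluorescence and the 3 non-Dbx1 samples held neuronal somata without it, with 15 neurons drawn by micropipette and pooled in each sample. Each of the 6 samples came from a different animal. All were Dbx1CreERT2; Rosa26tdTomato mice whose dams received tamoxifen during gestation, so the non-Dbx1 samples carried the same alleles and the same drug exposure. The label depends on when tamoxifen reached Dbx1-expressing progenitors, and cells were picked by eye, so a neuron without tdTomato is defined by lack of fluorescence and not by a marker of its own.

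NALCN is a voltage-insensitive channel that conducts a background sodium current and holds the resting membrane potential of neurons at depolarized values. UNC80 links the large scaffold protein UNC79 to the channel, and FAM155A, also called NLF-1, is needed for the channel to leave the endoplasmic reticulum and reach the plasma membrane. HCN channels open on hyperpolarization, conduct the mixed cation current known as Ih, and are shifted by cyclic AMP. Pex5l encodes TRIP8b, which binds the cytoplasmic end of HCN subunits and sets their surface trafficking and their response to cyclic AMP. Both currents are studied in the preBötC as determinants of excitability and of the tempo of the respiratory rhythm.

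TRIP8b holds HCN subunits in part by their last 3 residues, so the end of each coding sequence is shown for the 3 Hcn genes, read from GRCm38 with GENCODE vM21 transcripts. Capitals mark the last 3 codons before the stop codon, which is the final lower-case triplet.
Hcn2: gcgcgctcgcgcctctctTCCAACTTGtga
Hcn3: agaggtccccaaatttctGCCAACATGtga
Hcn4: gtacgctccaaactgccgTCTAATTTAtga
These lie at chr10:79735511-79735540 on the plus strand for Hcn2, chr3:89147599-89147628 on the minus strand for Hcn3 and chr9:58860734-58860763 on the plus strand for Hcn4, each in the coding part of the last exon. Hcn2 and Hcn4 differed at the DNA level in this stretch, with 6 of 9 bases identical, but all 3 of 3 codons had the same meaning. Hcn3 shared 7 of 9 bases with Hcn2 and 4 of 9 with Hcn4, and with each of them 1 of 3 codons had the same meaning. These tails show how the pore-forming members differ at the end that TRIP8b contacts, and they carry no measurement of the samples.

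All 8 genes had reads in all 6 samples, and none passed the test for a difference between Dbx1 and non-Dbx1 neurons. With limma on log2(RPKM + 1) across 17614 tested genes, 0 of 8 passed a false discovery rate (FDR) of 0.1, where 0.00568% of all tested genes did. That share is 1 gene, so 0 of 8 does not show that the groups are equal. The authors' DESeq2 test of counts called several genes at the same threshold, Hif1a and Gata2 among them. An unadjusted p under 0.05 was found for 0 of 8, beside 916 of the 17614 tested genes. The voom method on the recovered reads also called 0 of 8. RPKM is the number of reads scaled to exon length and to library depth, and L2FC is the mean log2(RPKM + 1) of Dbx1 minus that of non-Dbx1 samples, which understates fold changes of low genes. The values of the 2 groups overlapped for each of the 8 genes, while 10.6% of all tested genes had groups that did not overlap. Of the 8 L2FC values 5 were positive and 3 negative, and their median was 0.06 beside 0.01 over all tested genes. In pooled neurons such as these, fewer cells that express a gene and less RNA per cell cannot be told apart.

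Sequencing depth ranged from 6464675 to 9432958 reads on genes, and a gene with 1000 bases of exon and 3 reads would measure 0.318 to 0.464 RPKM, a floor that covers counting error only. The summed RPKM of 6 neuronal markers was 994 to 1708 in Dbx1 and 993 to 1380 in non-Dbx1 samples. Markers of other cells were also present: 4 astrocyte genes summed to 13.9 to 18.5 RPKM in Dbx1 and 19.2 to 31.0 in non-Dbx1 samples, and 3 microglial genes stayed at or below 2.58 in every sample. Non-Dbx1 replicate 1 stood apart with 325 RPKM over 4 oligodendrocyte lineage genes, against 4.29 to 24.0 in the other samples, and with 13946 RPKM over 4 globin genes. The globin sum was 89.6 to 505 RPKM in Dbx1 and 732 to 13946 in non-Dbx1 samples, so like the astrocyte sum it was higher in every non-Dbx1 sample than in every Dbx1 sample. Non-Dbx1 replicate 2 stood apart with 63.8 RPKM over 2 endothelial genes, against 0.0104 to 1.64 elsewhere. None of these marker genes was at 0 in all 6 samples. The part of these cells in the values below was not tested.

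Nalcn, the pore-forming subunit, lies at chr14:123276634-123627144 on the minus strand (GRCm38; ENSMUSG00000000197). It measured 10.5, 12.9 and 15.5 RPKM in Dbx1 replicates 1, 2 and 3, and 15.5, 15.2 and 7.84 RPKM in non-Dbx1 replicates 1, 2 and 3. Non-Dbx1 replicate 3 was the lowest sample, and the Dbx1 values lay within the non-Dbx1 range or at its upper end. The group means were 13.0 ± 2.48 RPKM in Dbx1 and 12.9 ± 4.36 RPKM in non-Dbx1 samples (SD, n = 3 each). The L2FC of Nalcn was 0.05 ± 0.361 (SE; 95% interval -0.77 to 0.88, limma FDR = 0.992). The interval spans nearly a doubling in either direction, so equality of the groups was not shown. At the smallest exon length that fits, between 526 and 926 reads per sample stand behind these values. The mean level of Nalcn lay above that of 79.4% of tested genes.

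Unc80, the bridging subunit, lies at chr1:66468367-66699148 on the plus strand (ENSMUSG00000055567) and had the largest L2FC of the 8 genes. It measured 3.21, 5.02 and 10.4 RPKM in Dbx1 samples and 2.11, 3.39 and 2.78 RPKM in non-Dbx1 samples. Dbx1 replicates 2 and 3 lay above every non-Dbx1 sample, and Dbx1 replicate 1 lay within the non-Dbx1 range. Group means were 6.20 ± 3.73 and 2.76 ± 0.640 RPKM (SD, n = 3 each), and the L2FC was 0.83 ± 0.546 (SE; 95% interval -0.42 to 2.08, limma FDR = 0.936). On the log values, a two-sided exact permutation test gave p = 0.2, where 0.1 is the smallest p that 3 samples against 3 allow. Without Dbx1 replicate 3, the sample with 1297 reads of Unc80, the L2FC was 0.44, and without Dbx1 replicate 1 it was 1.15.

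Unc79, the scaffold subunit, lies at chr12:102948859-103184065 on the plus strand (ENSMUSG00000021198) and was the most variable of the 8 genes. It measured 1.46, 3.91 and 3.96 RPKM in Dbx1 samples and 5.28, 0.494 and 0.933 RPKM in non-Dbx1 samples. The non-Dbx1 group held both the highest and the lowest value, a 10.7-fold range that rests on 598 and 74 reads. Its within-group SD on the log2(RPKM + 1) scale was 0.883, where the median over all tested genes was 0.551. Group means were 3.11 ± 1.43 and 2.24 ± 2.65 RPKM (SD, n = 3 each), with an L2FC of 0.57 ± 0.711 (SE; 95% interval -1.05 to 2.20, limma FDR = 0.960). The highest value came from non-Dbx1 replicate 1, the sample with the high oligodendrocyte and globin sums, but a link was not tested. Without that sample the Unc79 values of the groups no longer overlapped and the L2FC was 1.20 (limma FDR = 0.888), while 20.4% of all tested genes also had groups that did not overlap in those 5 samples.

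Fam155a, the trafficking factor of the complex, lies at chr8:9205902-9771161 on the minus strand (ENSMUSG00000079157). It measured 3.96, 11.8 and 15.9 RPKM in Dbx1 samples and 10.5, 7.51 and 4.91 RPKM in non-Dbx1 samples. The Dbx1 group held the lowest value and also the highest pair, so the non-Dbx1 samples fell inside its range. The group means were 10.6 ± 6.07 and 7.64 ± 2.79 RPKM (SD, n = 3 each), and the L2FC was 0.30 ± 0.530 (SE; 95% interval -0.91 to 1.51, limma FDR = 0.970). Without Dbx1 replicate 1 it was 0.82, and without Dbx1 replicate 3 it was -0.06. Leaving out Dbx1 replicate 1 separated the groups for both Unc80 and Fam155a. That is 2 of 8 genes, beside 20.3% of all tested genes in the same 5 samples. The authors reported En1 but no Evx1 in their first Dbx1 sample. They propose that neurons expressing En1 may have been collected in it by accident. Whether this bears on the values given here was not tested.

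**Figure D1:**
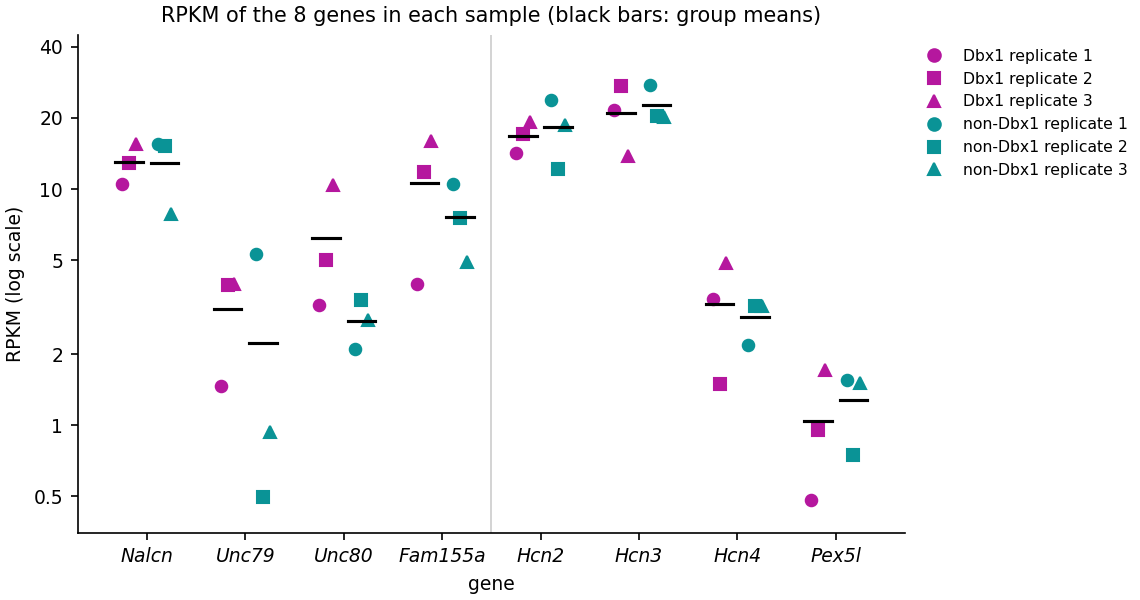
RPKM on a log axis for each of the 8 genes in the 3 Dbx1 (magenta) and 3 non-Dbx1 (teal) samples, with marker shape for the replicate and a black bar for each group mean. Unc79 spreads from 0.494 to 5.28 RPKM within the non-Dbx1 group, and the groups overlap for every gene.

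Among the HCN genes, Hcn2 and Hcn3 were the high pair and Hcn4 the low one. Hcn2, a subunit with a strong response to cyclic AMP, lies at chr10:79716634-79736108 on the plus strand (ENSMUSG00000020331). It measured 14.2, 17.1 and 19.1 RPKM in Dbx1 samples and 23.9, 12.1 and 18.7 RPKM in non-Dbx1 samples. The Dbx1 values lay between the lowest and the highest non-Dbx1 value. Group means were 16.8 ± 2.50 and 18.3 ± 5.90 RPKM (SD, n = 3 each), and the L2FC was -0.07 ± 0.324 (SE; 95% interval -0.82 to 0.67, limma FDR = 0.990).

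Hcn3, a subunit that is little affected by cyclic AMP, lies at chr3:89146074-89160196 on the minus strand (ENSMUSG00000028051) and had the highest mean level of the 8 genes, above that of 86.7% of tested genes. It measured 21.6, 27.4 and 13.8 RPKM in Dbx1 samples and 27.5, 20.3 and 20.2 RPKM in non-Dbx1 samples. Dbx1 replicate 3 was the low sample, and Dbx1 replicate 2 and non-Dbx1 replicate 1 were the high ones. Group means were 20.9 ± 6.86 and 22.7 ± 4.20 RPKM (SD, n = 3 each), and the L2FC was -0.15 ± 0.320 (SE; 95% interval -0.88 to 0.59, limma FDR = 0.979). In GENCODE vM21, 711 exon bases of Hcn3, or 17.1% of its merged exons, overlap the pyruvate kinase gene Pklr on the opposite strand. The libraries were made from full-length cDNA with a kit that keeps no strand, so reads there cannot be assigned by strand. Pklr itself was above 0 in 1 sample only (0.130 RPKM in Dbx1 replicate 2). The effect of the shared bases on the Hcn3 values was not tested.

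Hcn4, the slowly activating subunit known from cardiac pacemaker cells, lies at chr9:58823412-58863175 on the plus strand (ENSMUSG00000032338). It measured 3.41, 1.50 and 4.84 RPKM in Dbx1 samples and 2.17, 3.21 and 3.21 RPKM in non-Dbx1 samples. Both the lowest and the highest value were in Dbx1 samples, the lowest from 69 reads and the highest from 206. Group means were 3.25 ± 1.68 and 2.86 ± 0.596 RPKM (SD, n = 3 each), and the L2FC was 0.07 ± 0.563 (SE; 95% interval -1.22 to 1.35, limma FDR = 0.993).

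Pex5l, which encodes TRIP8b, lies at chr3:32949408-33143247 on the minus strand (ENSMUSG00000027674) and had the lowest mean level of the 8 genes, above that of 27.9% of tested genes. It measured 0.483, 0.949 and 1.71 RPKM in Dbx1 samples and 1.55, 0.749 and 1.52 RPKM in non-Dbx1 samples. The Dbx1 values bracketed all 3 non-Dbx1 values. Group means were 1.05 ± 0.617 and 1.27 ± 0.454 RPKM (SD, n = 3 each), and the L2FC was -0.17 ± 0.470 (SE; 95% interval -1.25 to 0.90, limma FDR = 0.982). Its 57 to 212 reads per sample were spread over a long gene, which gives low RPKM for a moderate number of reads. Of its merged exons, 3.84% overlap the antisense gene Gm37459.

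**Figure D2:**
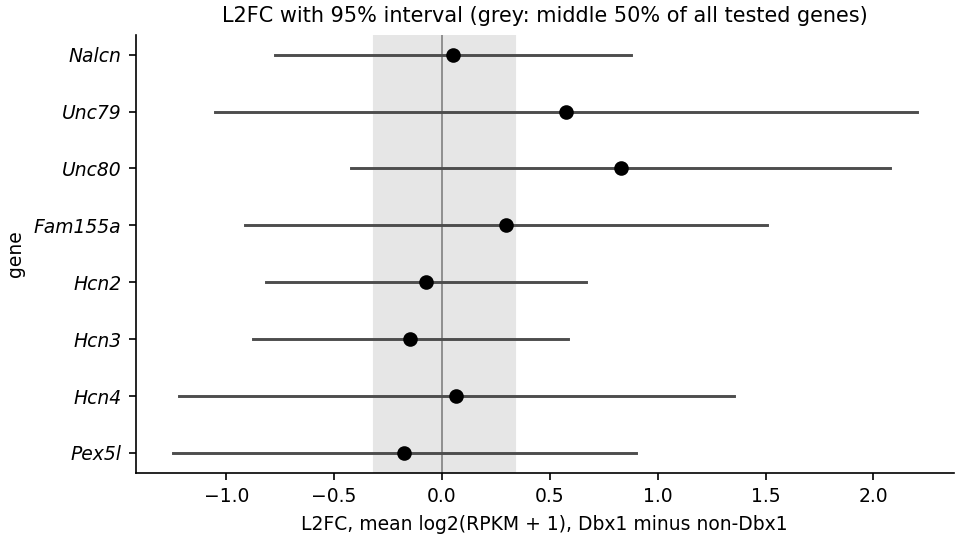
L2FC of each gene (points) with its 95% interval from limma (lines) on the log2(RPKM + 1) scale, above 0 where Dbx1 is higher, over a grey band for the middle 50% of all tested genes. All 8 intervals include 0, the widest being that of Unc79 from -1.05 to 2.20.

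Levels were then compared between genes within each sample, which RPKM permits because it is per length. In order of the mean over 6 samples, the genes measured 21.8 RPKM (Hcn3), 17.5 (Hcn2), 12.9 (Nalcn), 9.10 (Fam155a), 4.48 (Unc80), 3.06 (Hcn4), 2.67 (Unc79) and 1.16 (Pex5l). With the deposited lengths, in every sample the lowest of Hcn3, Hcn2 and Nalcn was above the highest of Unc80, Hcn4, Unc79 and Pex5l. The gap was narrowest in Dbx1 replicate 3, with 13.8 against 10.4 RPKM. This split was chosen after the means were seen and leaves out Fam155a, so it is a description only. Of the 28 pairs that the 8 genes form, 19 had the same gene higher in all 6 samples. Neighbours in the order were tested with the exact two-sided sign-change test on log2(RPKM + 1), whose smallest p with 6 samples is 0.03125, adjusted over the 7 neighbouring pairs. Fam155a exceeded Unc80 in 6 of 6 samples, by 0.90 ± 0.569 on the log2 scale (SD, n = 6; exact p = 0.03125, adjusted p = 0.219). The other neighbours had adjusted p values of 0.219 to 0.469, so no step of the order passed 0.05. A single pair at the smallest p adjusts to 0.219, so 1 pair alone could not pass. The adjusted test therefore cannot decide whether any 1 step is firm. Unc80 was above Hcn4 in 3 of 6 samples, and Hcn4 above Unc79 in 4 of 6.

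The position of Nalcn in this order depended on the exon length. The length recovered for Nalcn was 7115 bases, while its merged exons in GENCODE vM21 cover 14715 bases. A recovered length is the smallest that gives whole reads. A multiple of it, with reads multiplied alike, would give the same RPKM, so the length that the authors divided by was not established. For 6 of the other genes the recovered length was longer than the merged one, from 17504 against 14265 bases for Unc79 to 14827 against 8846 for Pex5l, and for Hcn4 both were 6118. For Hcn2, with 4340 bases, and for Hcn4 the recovered length equals the sum of all distinct annotated exons, in which bases shared by overlapping exons count repeatedly. For Nalcn this sum was 16015 bases against the recovered 7115. For Unc79, Unc80, Fam155a, Hcn3 and Pex5l the sum also differed from the recovered length. Rescaling to merged lengths took the recovered lengths as those of the deposited values. With merged lengths the means were 31.1 RPKM for Hcn3, 23.8 for Hcn2, 14.4 for Fam155a, 6.25 for Nalcn, 5.58 for Unc80, 3.28 for Unc79, 3.06 for Hcn4 and 1.94 for Pex5l. Nalcn then lay below Fam155a in 6 of 6 samples and above Unc80 in 4 of 6. These counts could differ if the deposited length of Nalcn was a multiple of the recovered one. With Nalcn kept at its recovered length and the others at merged lengths, Nalcn minus Fam155a was -0.04 on the log2 scale. The annotation release behind the deposited values is not given in the sources used here, so the length that fits the counted exons of Nalcn was not settled. The ratio of 1 gene's RPKM between samples does not depend on this choice. The L2FC does so through the pseudocount, by at most 0.05 on the log2 scale (Unc79), and no gene changed sign.

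**Figure D3:**
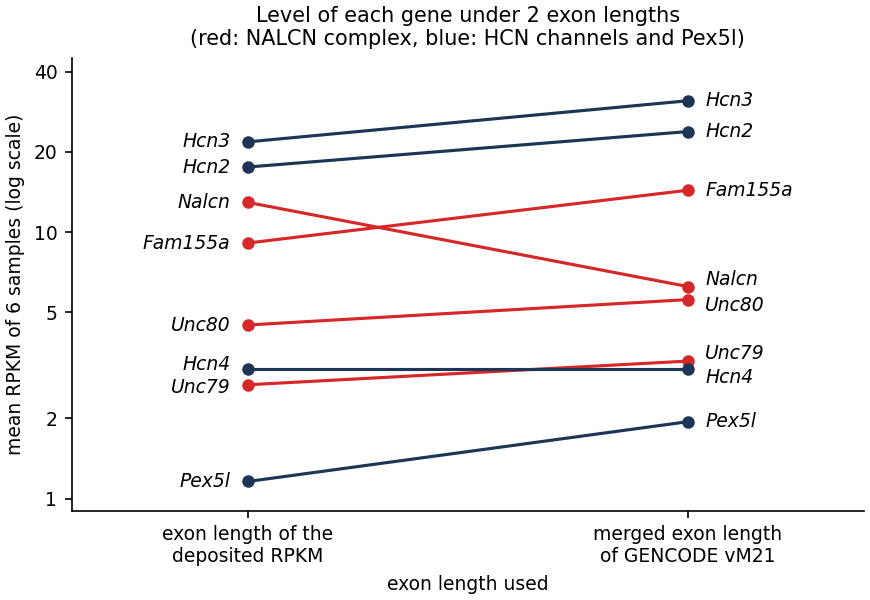
Mean RPKM over 6 samples (log axis) under the exon length of the deposited values and under merged GENCODE vM21 exons, with red lines for the NALCN complex and blue lines for the HCN genes and Pex5l. With the recovered length taken as the deposited one, Nalcn falls from 12.9 to 6.25 RPKM and crosses Fam155a. Hcn3 and Hcn2 stay at the top.

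The measured ratios of the accessory genes of the leak channel to Nalcn varied between samples. How much of this spread comes from the measurement was not tested. The ratio of Fam155a to Nalcn RPKM ran from 0.376 to 1.03 with a median of 0.651, that of Unc80 from 0.136 to 0.670 with a median of 0.330, and that of Unc79 from 0.0325 to 0.340 with a median of 0.197, all with the deposited exon lengths. With merged lengths these ratios were higher and Fam155a exceeded Nalcn in 6 of 6 samples, with ratios of 1.23 to 3.35, while that of Unc80 reached 1.73 and was above 1 in 2 of 6 samples, and that of Unc79 ran from 0.0824 to 0.863. The ratios with merged lengths take the recovered length of Nalcn as the deposited one, which was not established. Under both lengths, Unc79 exceeded Unc80 only in non-Dbx1 replicate 1, where the ratio with the deposited length was 2.51, against 0.146 to 0.780 in the other 5 samples. Exact permutation tests of the log ratios between the groups gave p = 0.5 for Unc79, p = 0.2 for Unc80 and p = 0.6 for Fam155a relative to Nalcn. Among the HCN genes, the ratio of Hcn2 to Hcn3 was 0.599 to 0.927 in 5 samples and 1.39 in Dbx1 replicate 3, the only sample with more Hcn2 than Hcn3. Hcn4 amounted to 0.0546 to 0.352 of Hcn3, and Pex5l to 0.0341 to 0.0891 of Hcn2 (exact permutation p = 1 and p = 0.5 between the groups). Dbx1 replicate 3 had the highest share of Hcn4 and of Pex5l in these ratios.

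**Figure D4:**
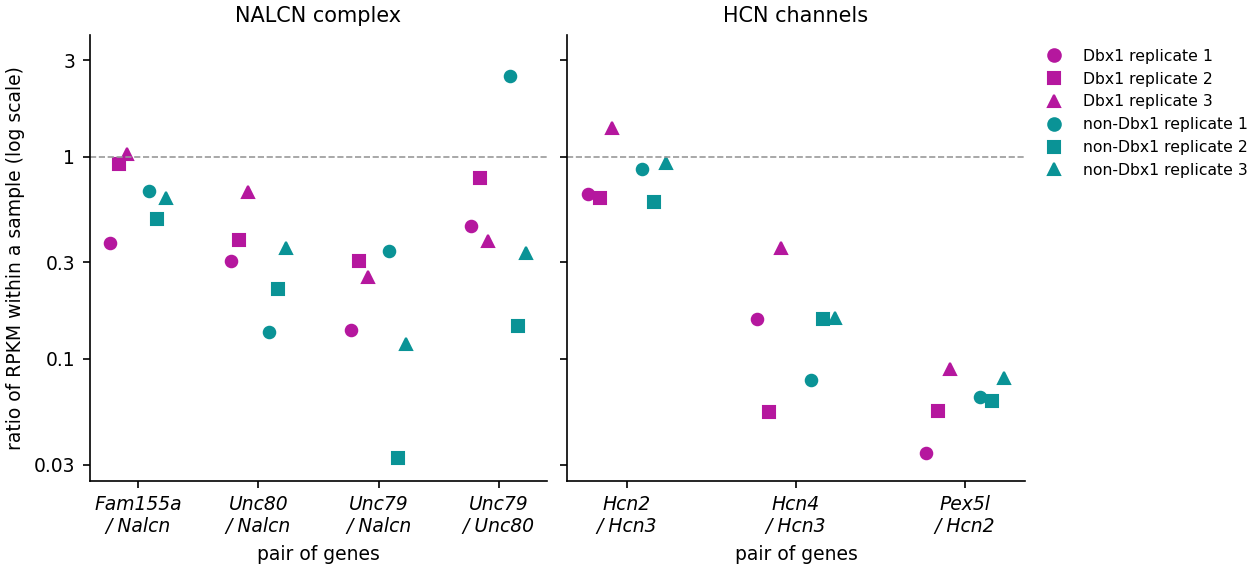
Ratio of the deposited RPKM of 2 genes within each sample (log axis, dashed line at 1), for the NALCN complex on the left and the HCN genes on the right, with colour for the group and shape for the replicate. Unc79 over Unc80 reaches 2.51 in non-Dbx1 replicate 1 and lies below 1 elsewhere, and Hcn2 over Hcn3 passes 1 only in Dbx1 replicate 3.

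In all, 12 pairs of genes within the complex or within the HCN set were correlated over the 6 samples on the log2(RPKM + 1) scale, and no pair passed after adjustment. For Hcn3 with Hcn4 the correlation was negative, with r = -0.93 (exact permutation p = 0.0333, adjusted p = 0.317) and rho = -0.71 (exact permutation p = 0.136, adjusted p = 0.483). Without the 2 samples farthest from the median of Hcn3, r was -0.95. For Hcn2 with Pex5l it was positive, with r = 0.82 (exact permutation p = 0.0528, adjusted p = 0.317) and rho = 0.89 (exact permutation p = 0.0333, adjusted p = 0.400), and r was 0.98 without the 2 farthest samples. Nalcn and Fam155a had r = 0.75 and rho = 0.66 (exact permutation p = 0.106 and p = 0.175, adjusted p = 0.347 and p = 0.483), but r was -0.06 without Dbx1 replicate 1 and non-Dbx1 replicate 3, so this relation rests on those samples. Both genes of a pair come from 1 library, so its depth and RNA quality are shared.

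The genes whose pattern over the 6 samples was most like that of Nalcn, among 4424 genes with a mean of at least 10 RPKM, were Tomm20 (r = 0.967), a mitochondrial import receptor, Shank1 (r = 0.964), a postsynaptic scaffold, and 1810030O07Rik (r = 0.962). With Nalcn, 23 genes reached r of 0.9 or more. For Hcn3 the closest were Mrpl2 (r = 0.967), a mitochondrial ribosomal protein, Cdk4 (r = 0.960), a cell cycle kinase, and Eif2b2 (r = 0.957), a translation initiation factor subunit, with 28 genes at 0.9 or more. These are descriptions of 6 points and carry no test.

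A list of 17 genes known to modulate these channels gives the context. It holds receptors and kinases that act on NALCN (Tacr1, Ntsr1, Chrm3, Casr, Src, Fyn), and partners or regulators of HCN channels (Kcne2, Flna, Magi2, Apba2, Grasp, Lrmp, Mrvi1, Vapa, Vapb, Rest). Fam155b, also listed, was not analysed here. Of the 16 genes with a row, 13 were tested and 9 had reads in all 6 samples. Limma called 0 of 13, beside 0.00568% of all tested genes, and voom called 0. An unadjusted limma p under 0.05 was found for 1 of 13, beside 916 of the 17614 tested genes. Of the 13 L2FC values 7 were positive and 6 negative, and their median was 0.01, as over all tested genes. Casr, Kcne2 and Mrvi1 had no reads in any sample, and 3 reads in the shallowest sample would correspond to 0.0984, 0.263 and 0.0680 RPKM with their merged exon lengths.

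Ntsr1, the neurotensin receptor that can activate the NALCN current in other neurons, measured 1.30, 1.24 and 0 RPKM in Dbx1 samples and 3.64, 8.63 and 2.92 RPKM in non-Dbx1 samples. All 3 non-Dbx1 samples lay above all 3 Dbx1 samples. The L2FC was -1.70 ± 0.638 (SE; unadjusted limma p = 0.0276, FDR = 0.912), and by exact permutation p was 0.1, the smallest that is possible. It is 1 of 13 tested genes with groups that did not overlap, beside the 10.6% of all tested genes. Tacr1, the substance P receptor, had an L2FC of 1.13 (limma FDR = 0.924) with overlapping groups. Chrm3, a muscarinic receptor, measured 1.09, 2.75 and 4.11 RPKM in Dbx1 and 1.93, 1.65 and 0.210 RPKM in non-Dbx1 samples, also overlapping, with an L2FC of 0.70 ± 0.622 (SE; limma FDR = 0.951). None of these differences passed the FDR threshold.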

How the data were processed

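The authors aligned reads to mm10 with TopHat2, handled alignments with SAMtools and counted reads per gene with HTSeq (submitters' processing notes; versions not given in the sources used here), and deposited 1 RPKM value per gene name and sample. The files hold no counts. Reads per gene, exon lengths and depths (6464675 to 9432958 reads) were recovered from steps between RPKM values, to within 0.002 of a whole read, as the smallest whole numbers that give them. A multiple of a gene's reads and length fits its RPKM too. In each sample the recovered reads summed to less than the depth, with 7912698 against 7951774 in Dbx1 replicate 1. The authors tested their counts with DESeq2. Here limma 3.58.1 (R 4.3.3, eBayes with trend, two-sided) was fitted to log2(RPKM + 1) of 17614 genes above 0 in at least 3 samples, with Benjamini-Hochberg adjustment and an FDR threshold of 0.1. P-values and L2FC intervals cover the spread between these samples only. Detection floors cover counting error only, since amplified reads are not independent molecules. Exact tests used scipy 1.17.1. Names and positions came from GENCODE vM21 on GRCm38, the assembly that mm10 denotes.

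The set of 8 genes uses no measured value in its rule, but it, the lists and the tests were proposed with earlier results of these data known. All 8 genes are described. Of the regulator list, the 3 with the largest absolute L2FC at a mean of at least 1 RPKM were named, and any whose groups did not overlap. Of likenesses, the 3 highest r were named, for Nalcn and for the Hcn gene with the highest mean. Alternatives covered the pseudocount, filters, scaling, the variance model, a replicate block and single samples left out.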

Additional observations from a re-analysis of the deposited data

How the results depend on the processing

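No call on the 8 genes changed in any of 14 alternatives. Limma called 1 gene of 17614, 0 with a pseudocount of 0.1, 0 with all genes above 0 in at least 1 sample, 3 without the mean-variance trend, 0 to 1 with single samples left out (0 without Dbx1 replicate 2 or 3 and without non-Dbx1 replicate 1 or 3), and 0 with voom on recovered reads, which was chosen after seeing the data. With the replicate block 0 genes and 0 of the 8 were called, but the samples share only a number: they came from 6 animals, and deviations of same-numbered samples correlated at -0.107 to 0.0248. Genes with an unadjusted p under 0.05 numbered 684 to 1046 over all settings, in which 12614 to 27067 genes were tested.

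With single samples left out, the L2FC of 6 genes changed sign: Nalcn from -0.24 to 0.21, Fam155a from -0.064 to 0.82, Hcn2 from -0.33 to 0.14, Hcn3 from -0.36 to 0.11, Hcn4 from -0.21 to 0.41 and Pex5l from -0.40 to 0.036. Hcn4 was -0.0027 with voom. Unc79 ran from 0.17 to 1.20 (1.21 with voom) and Unc80 from 0.44 to 1.15. Of the receptors, Ntsr1 ran from -1.95 to -1.30 (-4.00 with voom), with an unadjusted p of 0.0924 when Dbx1 replicate 3 was left out and 0.0869 when non-Dbx1 replicate 2 was, Tacr1 from 0.73 without non-Dbx1 replicate 2 to 1.43 (2.26 with voom), and Chrm3 from 0.30 without non-Dbx1 replicate 3 to 1.05 (1.49 with voom). With a pseudocount of 0.1 the L2FC was 0.98 for Unc79, -3.01 for Ntsr1, 1.97 for Tacr1 and 1.23 for Chrm3. Leaving out samples, an alternative added after seeing the data for overlap, gave 0 to 2 of the 8 genes with groups that did not overlap (Unc80 and Fam155a without Dbx1 replicate 1, Hcn4 without Dbx1 replicate 2, Unc79 without non-Dbx1 replicate 1, Unc80 without non-Dbx1 replicate 2), beside 3092 to 3843 of all tested genes, since fewer samples overlap less often.

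Merged exon lengths, also added after seeing the data, changed Hcn2 minus Nalcn to 1.78 and Nalcn minus Fam155a to -0.97, or to -0.038 with Nalcn at its recovered length. The values 1.78 and -0.97 take the recovered length of Nalcn as the deposited one. Unc80 minus Hcn4 was -0.041 in the non-Dbx1 samples alone. Without the 2 farthest samples, 7 correlations changed sign, to r = -0.14 for Nalcn with Unc79, -0.089 for Nalcn with Unc80, -0.060 for Nalcn with Fam155a, -0.62 for Unc80 with Fam155a, -0.47 for Hcn2 with Hcn3, 0.19 for Hcn2 with Hcn4 and -0.66 for Hcn4 with Pex5l. The causes of these changes were not tested beyond the removal itself. The main filter set no minimum number of reads, so values under the floor of 3 reads entered the tests. Ntsr1, with 0 RPKM in Dbx1 replicate 3, is 1 such gene. Differences that rest on such values are uncertain at this depth.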
